A study of Mus musculus with 6 samples.

Results

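The genes described here pattern the dorsal neural tube: Pax3, Pax7, Msx1, Msx2, Msx3, Olig3, Gsx1, Lmx1a, Gdf7 and Atoh1. They were chosen by name through the platform's probe annotation, with earlier results of these data known. All 10 were on the array, with 13 probes among the 55681 of the table and among the 21893 genes it names. NPC are cells sorted on GFP 5 days into neural differentiation with the NB27 and Neuro2 supplements, and ESC are the undifferentiated cells they were set against, with 3 biological replicates of each, from a study of histone acetylation. Both come from 46c, a mouse embryonic stem cell line of strain 129/Ola in which GFP reports expression of Sox1, a gene of early neural cells. ESC carry the same reporter, and whether bright or dim cells were collected is not stated. Total RNA was hybridised to single-colour Agilent arrays, and every level below is a quantile-normalised log2 signal, which ran between 1.03 and 16.18 with a median of 5.32 on each array. The number of arrays limits the precision.

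In the neural tube of vertebrate embryos, BMP and Wnt proteins from the roof plate and the neighbouring ectoderm act from the dorsal side and Sonic hedgehog acts from the floor plate. Progenitors answer with transcription factors that divide the dorsal side into bands. The paired-box factors Pax3 and Pax7 cover much of the dorsal side, the homeodomain factor Gsx1 and the bHLH factors Olig3 and Atoh1 mark narrower bands, and the LIM-homeodomain factor Lmx1a and the BMP-family ligand Gdf7 belong to the roof plate. The Msx homeodomain factors are induced by BMP signalling; Msx1 and Msx2 are expressed at the dorsal midline and at many sites outside the nervous system, while Msx3 is restricted to the dorsal neural tube.

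RefSeq promoter sequences (build GRCm38.p6, from 250 bases before to 50 bases after the annotated start) were matched for 9 of the 10 genes. Those of the genes that rose in NPC at their brightest probe are shown. These genes share a direction of change, and whether they vary together was not tested. Pax3, which also rose, was not matched. Capitals mark CpG dinucleotides.
Gsx1: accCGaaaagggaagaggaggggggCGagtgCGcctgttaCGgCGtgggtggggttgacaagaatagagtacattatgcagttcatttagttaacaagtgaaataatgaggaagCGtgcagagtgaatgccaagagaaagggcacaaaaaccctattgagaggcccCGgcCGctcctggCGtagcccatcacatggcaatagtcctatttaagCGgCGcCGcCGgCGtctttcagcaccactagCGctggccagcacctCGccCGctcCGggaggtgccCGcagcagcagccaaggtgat
Pax7: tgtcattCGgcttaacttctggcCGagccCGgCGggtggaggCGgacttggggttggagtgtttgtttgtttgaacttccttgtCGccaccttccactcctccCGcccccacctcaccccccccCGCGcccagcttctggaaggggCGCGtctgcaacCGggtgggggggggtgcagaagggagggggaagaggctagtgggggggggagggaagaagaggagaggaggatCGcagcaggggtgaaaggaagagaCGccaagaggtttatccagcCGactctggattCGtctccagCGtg
Olig3: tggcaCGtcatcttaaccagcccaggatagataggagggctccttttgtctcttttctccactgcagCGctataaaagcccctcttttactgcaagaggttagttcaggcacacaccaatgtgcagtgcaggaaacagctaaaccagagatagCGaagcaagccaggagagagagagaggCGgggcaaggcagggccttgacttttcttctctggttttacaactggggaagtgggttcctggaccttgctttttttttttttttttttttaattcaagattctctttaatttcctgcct
The Gsx1 stretch lies at chr5:147188446-147188745 on the plus strand, the Pax7 stretch at chr4:139832919-139833218 on the minus strand and the Olig3 stretch at chr10:19356289-19356588 on the plus strand. Gsx1 and Pax7 held 19 and 17 CpG dinucleotides and Olig3 held 4, beside a median of 7 over the 32851 promoters of the same length. The promoters of the other matched genes held between 12 (Lmx1a) and 29 (Msx1). The bHLH E-box CANNTG, searched on both strands, was found at 2 places in the Gsx1 promoter, at 1 in the Olig3 promoter and at 0 in the Pax7 promoter, and 72.3% of all promoters held it. GGCGCC, an element bound by SMAD proteins, was found at 1 place in Gsx1 and at 0 in Pax7 and Olig3, and 11.9% of all promoters held it; in Gsx1 its centre is a CpG. The homeodomain motif TAATTA (5.29% of all promoters), the TCF motif CTTTGT (18.7%) and the nuclear receptor motif AGGTCA (16.3%) were not found in these 3 stretches. The Msx1, Msx2 and Lmx1a promoters each held the E-box at 1 place, and those of Msx3, Gdf7 and Atoh1 at 0. Msx2 also held TAATTA at 1 place. These matches describe letters in a short window and say nothing of binding.

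Of the 10 genes, 4 rose in NPC, namely Pax3, Pax7, Gsx1 and Olig3. Atoh1 fell, from a low level and without a call once the replicate block was fitted. Counted by probe, 5 of the 13 probes rose and 1 fell at a limma adjusted p under 0.05 (lmFit and eBayes across all 55681 probes, Benjamini-Hochberg adjustment), beside 6.08% of all probes that rose and 5.43% that fell. Counted by gene at the brightest probe, 4 of 10 rose and 1 fell, beside 9.18% and 7.92% of the 21893 named genes. The median difference of the 10 genes was 0.78 on the log2 scale, and that of all named genes was 0.01. The genes of the roof plate and dorsal midline (Lmx1a, Gdf7, Msx1 and Msx2) gave no call at any of 5 probes in this limma fit. Their differences lay between 0.08 and 1.12 at the brightest probes. At an unadjusted limma p under 0.05, 1 of the 5 probes (Lmx1a) was higher and 1 (the dimmer of Gdf7) lower. Over all 13 probes, the NPC values lay above all ESC values at 6 probes and below them at 2, beside 15.0% and 14.4% of all probes. By setting, the calls moved as follows. With the replicate block, which pairs NPC and ESC arrays of the same number, 6 dorsal probes rose (the dimmer probe of Msx3 added) and 1 fell, beside 10.7% and 9.5% of all probes. The probe that fell was then the dimmer one of Gdf7, a roof plate gene, and Atoh1 was not called. With values under 6 set to 6, 2 rose (both of Pax3) and 0 fell, beside 2.87% and 2.75%. Of the 5 dorsal probes with a mean of at least 6, 3 rose (Pax3, Pax7 and Gsx1) and 0 fell, beside 9.79% and 7.77% of such probes. Pax3 was called in each of these fits. With named probes only 5 rose and 2 fell, beside 9.62% and 7.96%, and with array weights 6 rose and 2 fell, beside 19.1% and 19.6%. The dimmer Gdf7 probe was among those that fell in both of these fits. The brighter Gdf7 probe was among those that rose with array weights. In RNA from whole sorted populations, fewer cells of a type and less RNA per cell cannot be told apart.

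Pax3, the earliest of the broad dorsal factors and also a factor of neural crest and muscle precursors, had the largest difference of the 10. Its brighter probe read 12.04, 11.03 and 11.07 in NPC, against 4.94, 5.69 and 4.68 in ESC, and its dimmer probe read 10.40, 9.17 and 9.35 in NPC, against 2.07, 2.21 and 2.23 in ESC. At both probes every NPC array was above every ESC array, by a gap of 5.34 at the brighter probe and of 6.94 at the dimmer probe, and NPC replicate 1 was the highest of the NPC arrays. The brighter probe rose by 6.28 ± 0.41 on the log2 scale (SE, n = 3 per group, adjusted p = 0.000825), which is 77.6-fold. The dimmer probe rose by 7.47 ± 0.36 (adjusted p = 0.000366). All ESC values of Pax3 lay below 6, in the range that holds 57.1% of all values of the table, so the size of the rise rests on dim signals. With values under 6 set to 6 the rises were 5.38 (adjusted p = 0.00411) and 3.64 (adjusted p = 0.0152). The calls of both probes held in all 6 fits that left out 1 array.

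Pax7, the close relative of Pax3 that shares its dorsal domain, rose less. Its single probe read 9.51, 8.13 and 9.28 in NPC, against 5.54, 5.19 and 6.93 in ESC. The groups did not overlap, and ESC replicate 3 stood above the other ESC arrays. The mean was 8.97 ± 0.74 in NPC and 5.89 ± 0.92 in ESC (SD, n = 3 each), a rise of 3.09 ± 0.59 (SE, adjusted p = 0.0277), or 8.49-fold. The call was lost in 4 of 6 fits that left out 1 array, those without NPC replicate 1, NPC replicate 3, ESC replicate 1 or ESC replicate 2 (highest adjusted p = 0.118), and with values under 6 set to 6, when the difference was 2.66 (adjusted p = 0.0751).

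Gsx1, a homeodomain factor of the intermediate dorsal bands, read 10.80, 9.37 and 9.35 in NPC, against 6.53, 7.16 and 6.27 in ESC. The groups were separated by 2.19, and NPC replicate 1 was again the highest array. The rise was 3.19 ± 0.49 (adjusted p = 0.0125), or 9.10-fold. Gsx1 was the only called member with all 6 values at 6 or more, so its difference was the same with the floor of 6. Its adjusted p was then 0.0529, and it was 0.0658 without ESC replicate 1.

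The bHLH factors of the dorsal bands differed in direction. Olig3, which marks the dorsalmost progenitor bands, read 6.69, 7.14 and 6.36 in NPC, against 4.70, 5.67 and 4.44 in ESC, a rise of 1.79 ± 0.40 (adjusted p = 0.0447), or 3.46-fold. Its groups were 0.69 apart, and ESC replicate 2 was the closest to NPC. The call was kept without ESC replicate 2 (adjusted p = 0.0242) and lost in each of the other 5 fits that left out 1 array (highest adjusted p = 0.171, without ESC replicate 1), and it was lost with the floor of 6, when the difference was 0.73 (adjusted p = 0.226). Atoh1, the factor of the band next to the roof plate and of rhombic lip precursors, read 1.64, 1.47 and 2.76 in NPC, against 3.82, 4.29 and 3.43 in ESC. It fell by 1.89 ± 0.43 (adjusted p = 0.0482). All 6 values lay under the array median, so no difference was left with the floor of 6. NPC replicate 3 was the highest NPC array, and the call was kept without it (adjusted p = 0.0177) and lost in the other 5 fits that left out 1 array (highest adjusted p = 0.166). Atoh1 had an adjusted p of 0.0716 with the replicate block, so its call was lost in that fit.

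**Figure D1:**
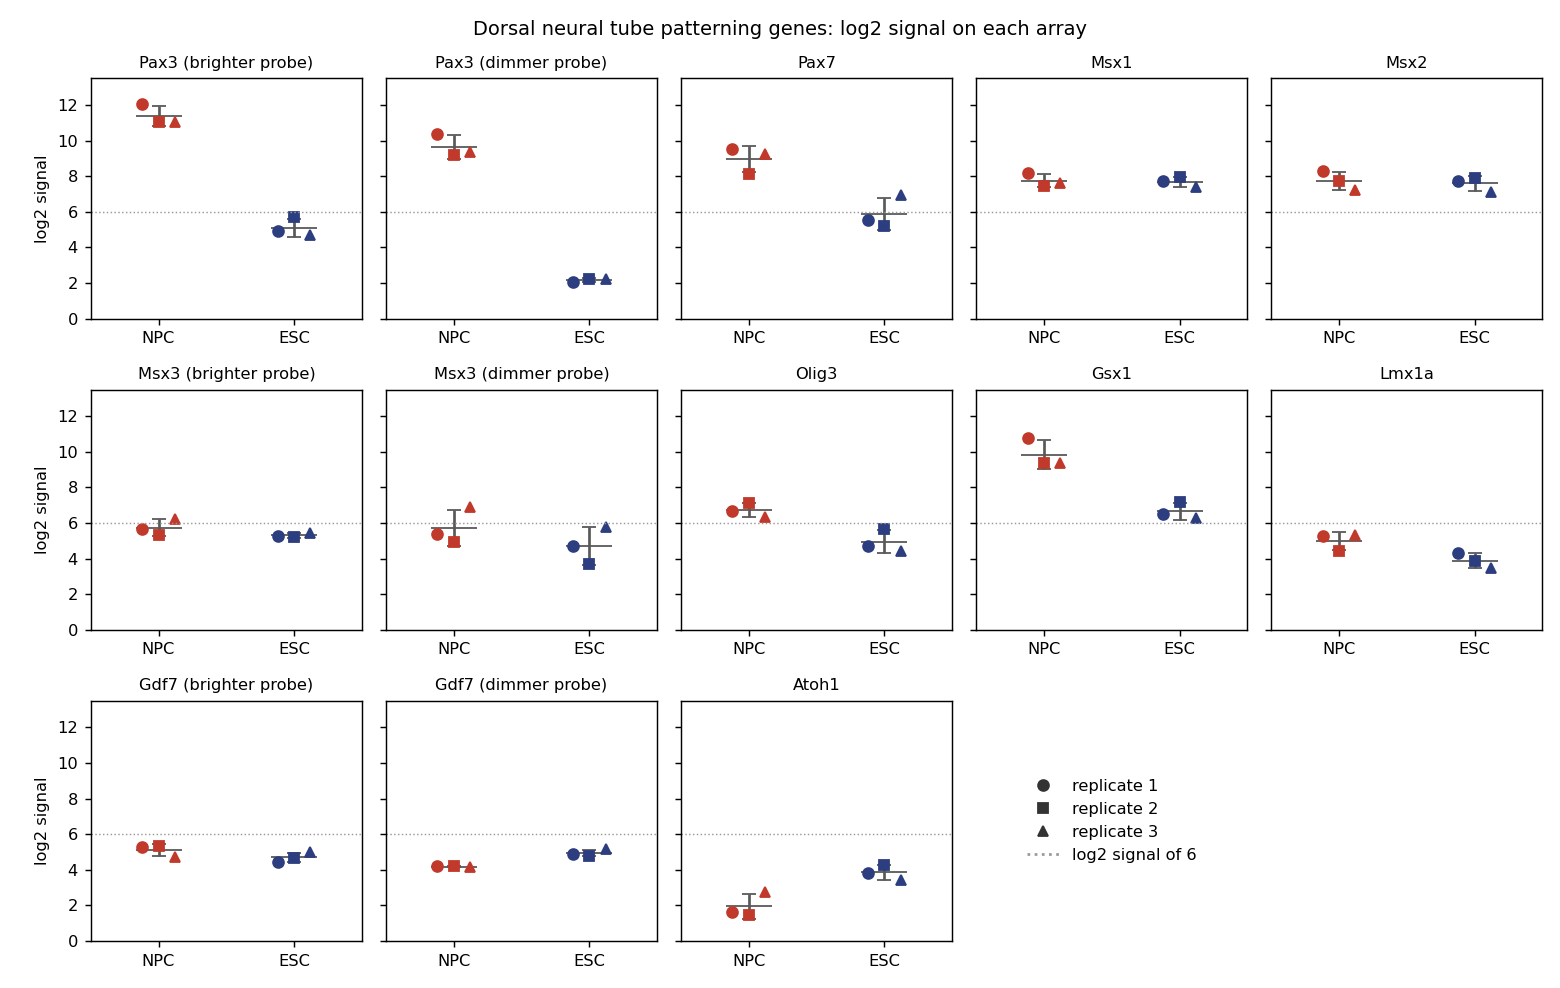
Log2 signal (vertical axis) of each of the 13 probes on the 3 NPC arrays (red, left) and the 3 ESC arrays (blue, right), with mean and SD as horizontal bar and error bar and the replicate number as symbol. Pax3, Pax7, Gsx1 and Olig3 separate upwards, Atoh1 separates downwards at signals under 5, and Msx1 and Msx2 overlap near 8.

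Msx1 and Msx2 gave no call in either direction, with or without the replicate block. Msx1 read 8.18, 7.46 and 7.64 in NPC, against 7.71, 7.97 and 7.38 in ESC, and the groups overlapped. The difference was 0.08 with a 95% interval from -0.61 to 0.77 (adjusted p = 0.925). Msx2 read 8.27, 7.74 and 7.23 in NPC, against 7.74, 7.93 and 7.13 in ESC, again with overlap, and the difference was 0.15 with an interval from -0.74 to 1.04 (adjusted p = 0.886). Both intervals leave out a rise of the size seen for Gsx1 or Pax7, and all values of both probes were at 6 or more. The sign of both differences turned without NPC replicate 1 and without ESC replicate 3.

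Msx3 was measured by a pair of probes whose groups overlapped, and neither was called without the replicate block. The brighter probe read 5.66, 5.31 and 6.24 in NPC, against 5.25, 5.22 and 5.46 in ESC, a difference of 0.43 ± 0.28 (adjusted p = 0.477). The dimmer probe read 5.37, 4.95 and 6.89 in NPC, against 4.72, 3.67 and 5.79 in ESC, a difference of 1.02 ± 0.73 (adjusted p = 0.523). In both groups replicate 3 was the highest and replicate 2 the lowest, and within each replicate number NPC exceeded ESC at the dimmer probe, by 0.65, 1.29 and 1.11. With the replicate number as a block that probe passed (adjusted p = 0.0373) and the brighter one did not (adjusted p = 0.218). Of the 12 values of Msx3, only 2 were above 6, both in NPC replicate 3.

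Lmx1a and Gdf7, the genes of the list that are most specific to the roof plate, were dim on all 6 arrays. Lmx1a, a factor needed to form the roof plate, read 5.29, 4.43 and 5.30 in NPC, against 4.33, 3.84 and 3.48 in ESC. The groups were 0.10 apart, and the difference of 1.12 ± 0.36 did not pass (adjusted p = 0.125, and 0.0775 with the replicate block). Gdf7, a roof plate ligand that acts on the dorsalmost interneurons, gave opposite signs at its probes. The brighter probe read 5.26, 5.35 and 4.73 in NPC, against 4.46, 4.67 and 4.97 in ESC, with overlap and a difference of 0.41 ± 0.26 (adjusted p = 0.446). The dimmer probe read 4.19, 4.20 and 4.13 in NPC, against 4.89, 4.79 and 5.14 in ESC, without overlap, and differed by -0.77 ± 0.18 (adjusted p = 0.0506). With the replicate block the dimmer probe passed as a fall (adjusted p = 0.0479), and it passed when only the probes with a gene symbol were fitted (adjusted p = 0.0382). All values of Lmx1a and Gdf7 were under 6, so at that floor neither gene showed any difference.

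**Figure D2:**
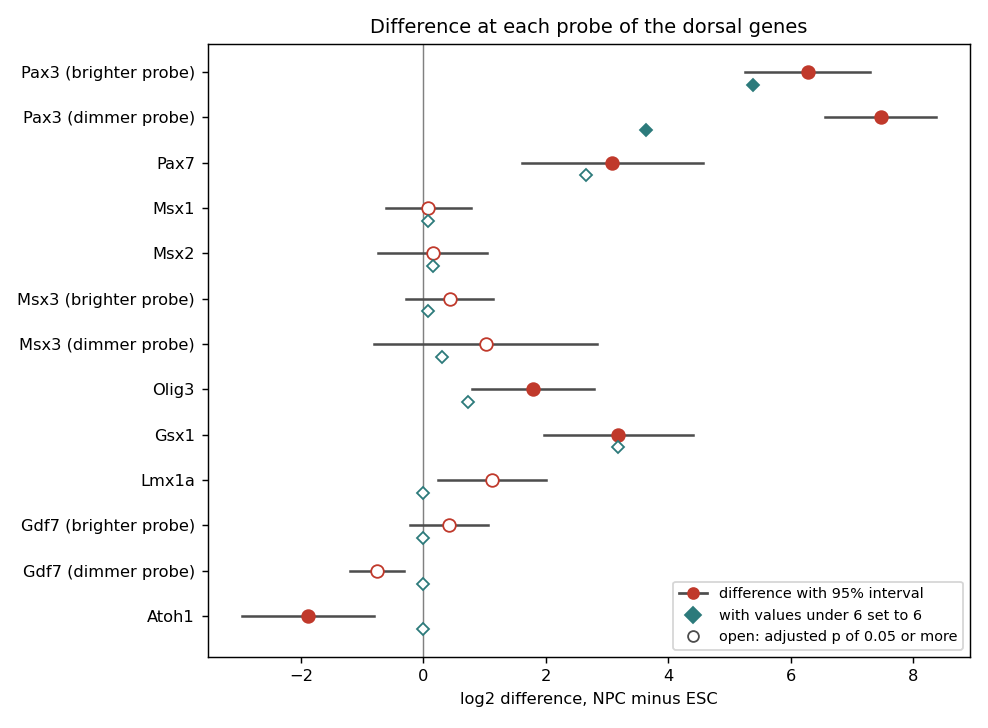
Log2 difference of NPC minus ESC (horizontal axis) at each of the 13 probes, with the 95% interval of the limma fit as a line and the difference with values under 6 set to 6 as a diamond; filled symbols have an adjusted p under 0.05. Only the Pax3 probes have filled diamonds, and the diamonds of Lmx1a, Gdf7 and Atoh1 lie at 0.

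A wider list held 32 other genes of dorsal progenitors and the roof plate, of which 30 were measured, each taken at its brightest probe. Of these, 9 rose and 3 fell, beside 9.18% and 7.92% of named genes, with a median difference of 0.81. Dbx1, Dbx2, Irx3 and Irx5 of the intermediate neural tube are among those that rose, so these counts and the median are not of dorsal genes alone. With the replicate block 12 rose and 3 fell, and with the floor of 6, 6 rose and 3 fell. The largest rises were those of homeodomain factors of the intermediate neural tube: Dbx1, which marks progenitors at the border between dorsal and ventral sides, rose by 10.40 ± 0.17 (adjusted p = 7.96e-05), and Irx3 and Irx5 rose by 9.78 ± 0.54 and 7.77 ± 0.59. With the floor of 6, Dbx1 differed by 7.28, Irx3 by 6.98 and Irx5 by 3.72. The largest fall was that of Sp5, a target of Wnt signalling, by 4.27 ± 0.46 (adjusted p = 0.00378). Pax6, which overlaps the Gsx1 bands, read 9.09, 7.68 and 11.09 in NPC, against 7.75, 5.75 and 8.93 in ESC, so that the replicates of each group lay in the same order and the groups overlapped. Its difference of 1.81 passed with the replicate block (adjusted p = 0.0142) and not without it (adjusted p = 0.459). The probes of Zic1, a zinc-finger factor of the dorsal tube, disagreed, with -0.81 and no call at the brighter one and a rise of 4.52 (adjusted p = 0.00329) at the dimmer one. Of its family, Zic5 fell by 2.13 ± 0.32 (adjusted p = 0.0117, and 0.0408 with the floor of 6). The dimmer probes of Zic5 gave -3.79 and -2.29 without a call. Zic4 rose by 1.26 ± 0.29 (adjusted p = 0.0487) but by 0.03 without a call with the floor of 6, and Zic2 gave 0.21 without a call.

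Among the 11 secreted proteins of that list, 2 rose and 0 fell, beside 9.18% and 7.92% of named genes. At an unadjusted limma p under 0.05 the numbers were 3 and 1. Gdf10 rose by 2.49 ± 0.19 from values that were all under 6 in both groups, and Bmp7, a roof plate ligand, read 8.36, 8.40 and 7.93 in NPC, against 6.70, 7.03 and 6.74 in ESC, a rise of 1.41 ± 0.22 (adjusted p = 0.0132). The call of Bmp7 was lost without NPC replicate 1, NPC replicate 2, ESC replicate 1 or ESC replicate 3 (highest adjusted p = 0.0753). Wnt1 and Wnt3a, the Wnt ligands of the dorsal midline, are given for their role. Wnt1 read 9.73, 9.53 and 9.16 in NPC, against 9.25, 9.31 and 9.39 in ESC, and Wnt3a read between 1.38 and 1.88 in NPC, against 1.33 to 1.43 in ESC. Neither passed (adjusted p = 0.763 and 0.650).

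**Figure D3:**
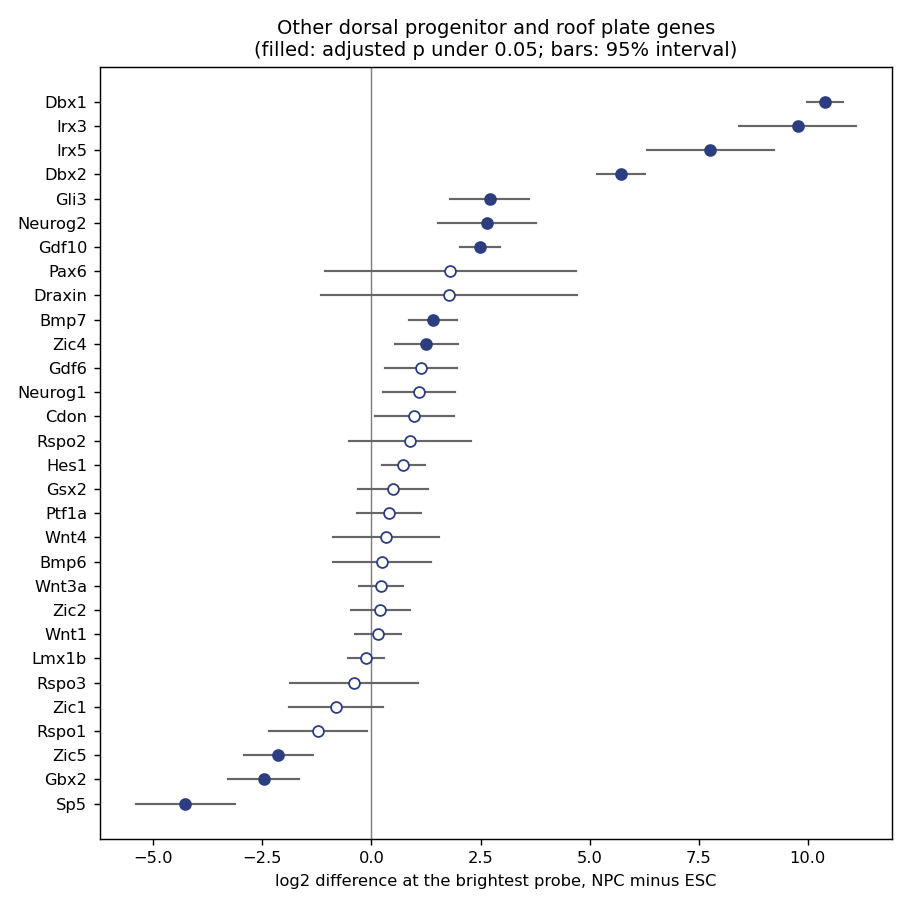
Log2 difference of NPC minus ESC (horizontal axis) with its 95% interval for the 30 measured genes of the wider dorsal list at their brightest probes; filled points have an adjusted p under 0.05 and open points do not. Dbx1, Irx3, Irx5 and Dbx2 stand at the top, Sp5, Gbx2 and Zic5 at the bottom, and 9 of the 11 secreted-protein genes have open points.

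Genes of the BMP and Wnt pathways, which act on the dorsal genes, were counted at their brightest probes. Of 24 genes of BMP signalling, all measured, 5 rose and 3 fell, beside 9.18% and 7.92% of named genes; 9 rose and 4 fell with the replicate block, and 1 rose and 3 fell with the floor of 6. Bmp4, a ligand made by dorsal ectoderm and by ES cells, read 7.46, 7.45 and 7.46 in NPC, against 13.45, 14.05 and 13.14 in ESC, a fall by 6.09 ± 0.27 (adjusted p = 0.000311), whereas its dimmer probe gave -1.85 without a call. Fst, which encodes the antagonist follistatin, rose by 4.33 ± 0.59. Id4, which belongs to the BMP-responsive Id family, rose by 3.21 ± 0.63 with a call kept only without ESC replicate 3 among the fits that left out 1 array. Id1 of the same family fell by 1.665 ± 0.21 (adjusted p = 0.00618), and Id2 and Id3 were not called. Smad7 also fell, by 2.17 ± 0.31 (adjusted p = 0.00996). The calls of Id1 and Smad7 held with the replicate block and with the floor of 6, where that of Id4 was lost (adjusted p = 0.1045). Without 1 array the BMP list gave between 1 and 4 rises. Of 15 measured Wnt effectors and targets, 4 rose and 0 fell (6 and 1 at an unadjusted limma p under 0.05), beside the same 9.18% and 7.92% of named genes, and 7 rose and 0 fell with the replicate block. The lower gene was Lef1, which narrowly missed a call at -2.04 ± 0.47 (adjusted p = 0.05004, and 0.0354 with named probes only). Its adjusted p was 0.0767 with the replicate block and 0.133 with the floor of 6. Its dimmer probe gave -2.33 (adjusted p = 0.0711). Lgr5, a receptor for R-spondins, rose by 4.91 ± 0.33, but its dimmer probe gave 0.15 without a call; with the floor of 6 the brighter probe gave 2.11. Nkd1, a feedback inhibitor, rose by 3.41 ± 0.34, and Sfrp2, a secreted antagonist, rose by 2.85 ± 0.53 with a call that was lost in 4 of 6 fits that left out 1 array (those without NPC replicate 1 or any ESC array).

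Genes of the neurons that dorsal progenitors form, and genes of the intermediate and ventral tube, were counted beside the dorsal factors. Of all named genes at the brightest probe, 9.18% rose and 7.92% fell. Of 20 measured dorsal interneuron genes, 6 rose and 1 fell, with a median of 0.35 (7 and 2 with the replicate block). Lhx5 and Isl1, LIM-homeodomain factors, rose by 6.63 ± 0.38 and 4.65 ± 0.36, and with the floor of 6 they differed by 3.33 and 2.38. The count depends on the probe taken. Lhx1 gave 0.59 and no call at its brightest probe and rose by 6.25 at its dimmer one (adjusted p = 0.000187). Lbx1 rose by 3.19 at its brightest probe and gave 0.05 and no call at its dimmer one. The gene that fell was Foxd3 (-7.59 ± 0.55), a factor of an interneuron class that ES cells and neural crest also express. Of 19 measured intermediate and ventral genes, 9 rose and 1 fell, with a median of 2.18, and without 1 array between 3 and 10 rose; with the floor of 6, 4 rose and 1 fell. Nkx6-1, a factor of ventral progenitors, rose by 6.65 ± 0.57, and Foxa2 and Shh, the factor and the signal of the floor plate, rose by 5.69 ± 0.35 and 4.76 ± 0.94. The call of Shh was lost with the floor of 6 (difference 1.01) and without NPC replicate 2 or any 1 of the ESC arrays. Evx2 fell by 0.96 ± 0.16, a call kept only without NPC replicate 3 among the fits that left out 1 array, and its dimmer probe gave -0.06. Nkx2-2 gave 1.37 and no call at its brightest probe and rose by 4.76 at its dimmer one (adjusted p = 0.000802). Prdm12 rose by 4.18 at its brightest probe and gave 0.63 and no call at its dimmer one. Whether the dorsal list differs from the ventral list was not tested.

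**Figure D4:**
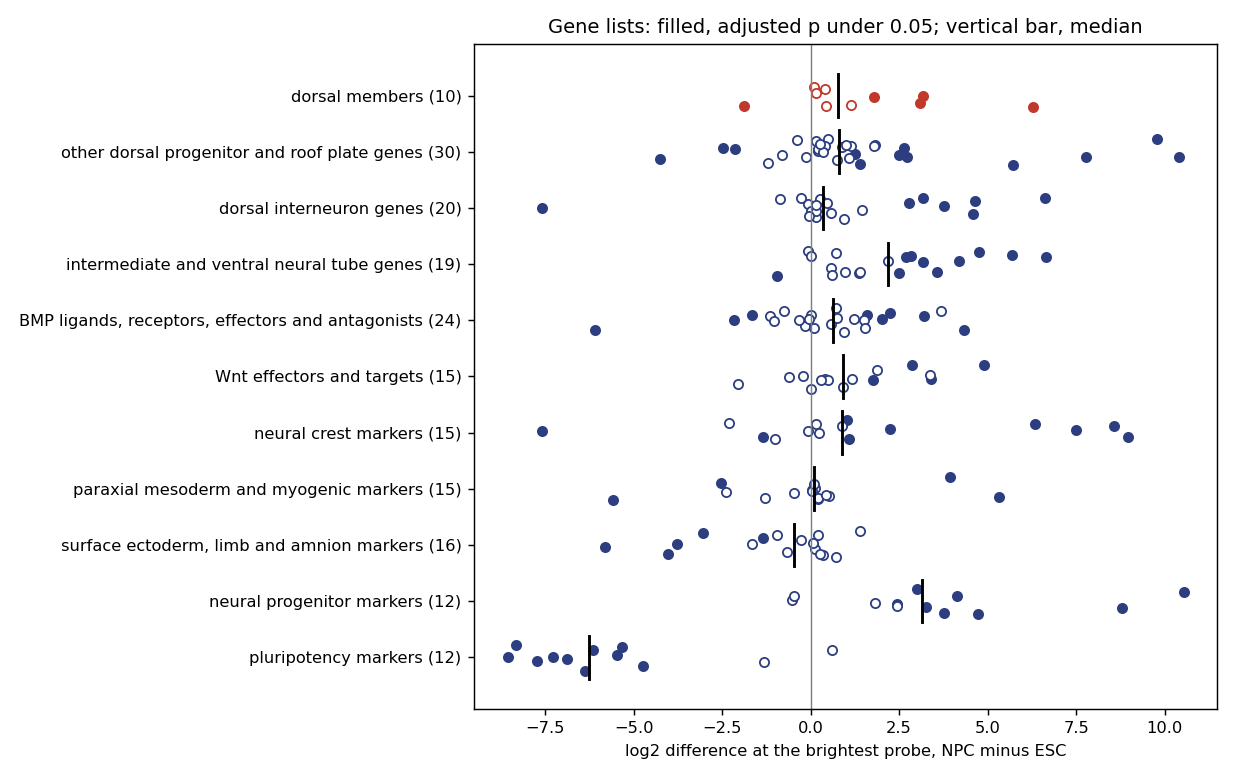
Log2 difference of NPC minus ESC (horizontal axis) at the brightest probe of each measured gene, by list, with the number measured in brackets; filled points have an adjusted p under 0.05, vertical bars are medians and the vertical scatter within a row has no meaning. The 10 dorsal genes are in red with a median of 0.78, between the medians of the pluripotency markers (-6.27) and the neural progenitor markers (3.13).

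The labels were checked against markers. Each count of called markers below, taken at the brightest probe, stands beside 9.18% of all named genes that rose and 7.92% that fell. Of 12 neural progenitor markers 8 rose and 0 fell, and of 12 pluripotency markers 10 fell and 0 rose; at an unadjusted limma p under 0.05 the numbers were 9 and 0, and 11 and 0. The largest changes were those of Fabp7 (10.54), Hes5 (8.79) and Sox3 (4.73) among neural genes, and of Zfp42 (-8.56) and Fgf4 (-8.34) among pluripotency genes. The neural progenitor markers without a call were Sox2 (-0.54), Msi1 (-0.48), Pax6 (1.81) and Rfx4 (2.44). The dimmer probes of Msi1 and Rfx4 rose by 3.99 and 5.93 (adjusted p = 0.000829 and 0.000187), and that of Pax6 gave 0.61 without a call. The pluripotency markers without a call were Nanog (0.59, adjusted p = 0.345) and Tdgf1 (-1.31, adjusted p = 0.192). The dimmer probes of Tdgf1 were called, at -9.77 and -7.68. Sox1, used for the sort and so no finding, read 11.11, 11.18 and 10.22 in NPC, against 7.82, 8.36 and 7.29 in ESC at its brighter probe. Sox1 is counted among the 8 neural markers that rose. Its dimmer probe gave 0.91 without a call (adjusted p = 0.542). Pou5f1, which encodes Oct4, read 6.48, 6.54 and 6.98 in NPC, against 14.45, 13.89 and 14.92 in ESC. Pax3, Pax7 and the Msx genes are also expressed in neural crest, muscle precursors and ectoderm, so markers of these tissues were counted. Of 15 measured neural crest markers 7 rose and 2 fell, and the mean of the list lay between 7.10 and 7.59 on the NPC arrays, against 5.66 to 5.92 on the ESC arrays. With the replicate block 6 rose and 3 fell, and with the floor of 6, 4 rose and 2 fell. The genes that rose were Nr2f1 (8.95), Sox9 (8.58), Cdh11 (7.49, with 0.58 and no call at its dimmer probe), Tfap2b (6.35), Cdh6 (2.23), Twist1 (1.08) and Snai2 (1.02). Those that fell were Foxd3 (-7.59) and Mitf (-1.34). The markers without a call were Sox10, Snai1 (-2.31), Tfap2a (0.89), Ets1 (0.16), Ngfr (0.24) and Erbb3 (-1.02). With the replicate block Snai1 passed as a fall (adjusted p = 0.00618) and Twist1 lost its call (adjusted p = 0.0672). Whether the genes that rose were expressed by crest cells or by neural progenitors was not tested. Tfap2b, which encodes an AP-2 factor of neural crest, read 8.06, 7.19 and 7.11 in NPC, against 1.13, 1.10 and 1.09 in ESC (adjusted p = 0.00035, and 0.0881 with the floor of 6). Sox10, another crest gene, read 7.30, 7.34 and 7.16 in NPC, against 7.11, 7.42 and 7.51 in ESC, and did not pass (adjusted p = 0.883). Of 15 measured paraxial mesoderm and myogenic markers 2 rose (Foxc1 and Foxc2, by 5.33 and 3.94, and by 0.66 and 0.87 without a call with the floor of 6) and 2 fell, the larger being Tcf15 (-5.59); with the replicate block 2 rose and 4 fell. The mean of that list lay between 5.29 and 5.43 on the NPC arrays, against 5.37 to 5.63 on the ESC arrays, and the myogenic factor Myf5 read 1.34 to 1.53 in NPC, against 1.30 to 1.36 in ESC. Of 16 markers of surface ectoderm, limb and amnion 0 rose and 5 fell (1 and 6 at an unadjusted limma p under 0.05), led by Tfap2c (-5.81), Grhl3 (-4.02) and Krt8 (-3.77, with -4.67 and no call at its dimmer probe), and the mean of the list lay between 5.96 and 6.30 in NPC, against 7.08 to 7.55 in ESC. The part of these other cell types in the levels of the dorsal genes was not tested.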

How the data were processed

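Total RNA of 3 NPC and 3 ESC samples was amplified in 1 round, labelled with Cy3 and hybridised to Agilent arrays, per the labels' protocols. The deposited table holds log2 values of 55681 probes, none missing; the base was taken as 2 from their range. Once sorted, all 6 columns matched exactly, the mark of quantile normalisation by the authors; the submitters' processing notes list limma with no version. How background was corrected, detection calls and array batches were not given in the sources used here. Quantile normalisation hides a shift shared by most transcripts.

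Probes were named through the platform annotation: 30626 carried 1 symbol, 0 carried several and 25055 are unnamed here. RefSeq (GRCm38.p6) supplied current symbols, for 30332 of them, and promoters. NPC were compared with ESC with limma 3.58.1 in R 4.3.3 on all probes, two-sided, without covariates, and the procedure was tested on simulated data. A gene with several probes was counted at the probe of highest mean over all arrays, and other probes of some genes gave another call. All probes of the 10 genes are reported; from each of 10 other lists, holding 183 genes of which 175 were measured, the 3 largest called changes are named, plus the largest called one in the less common direction, with Sox1 and Pou5f1. Wnt1, Wnt3a, Gdf10, Bmp7, Pax6, Zic1, Sox10, Myf5 and the called crest markers beyond the rule were added for their roles, after their values were seen. Members and lists were chosen with earlier results of these data known.

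Replicate numbers were taken from the titles. Same-numbered arrays deviated together from their group means for replicates 2 and 3 (r = 0.721 and 0.768 over 21893 genes). For replicate 1 they did so only weakly (r = 0.189), and NPC replicate 1 was closer to ESC replicate 2 (r = 0.402). The main fit has no replicate term, so the calls reported first do not use this pairing. The fit with the replicate number as a block is an alternative. Other alternatives were a floor of 6, a minimum mean of 6, named probes only, 1 probe or the mean of the probes per gene, an intensity trend, array weights, a log2 change of at least 1, and leaving out each array.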

Additional observations from a re-analysis of the deposited data

How the results depend on the processing

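Whether the replicate numbers pair the samples is not certain for replicate 1, and the main fit does not use them. With the replicate block 11256 probes were called, against 6407 without it, and 6323 were called by both. The block added the dimmer probe of Msx3 and the dimmer probe of Gdf7, removed Atoh1 and changed no other call among the 13 probes, 6 of which then rose and 1 of which fell. With values under 6 set to 6, 3133 probes were called, and of the dorsal probes 2 rose (both of Pax3, so 1 gene) and 0 fell. With a mean of at least 6, 4151 were called among 23631 probes, and 5 dorsal probes were tested, of which 3 rose and 0 fell. With array weights, whose estimation did not fully converge, 21548 were called, 6 dorsal probes rose (the brighter Gdf7 probe added) and 2 fell (Atoh1 and the dimmer Gdf7 probe). With named probes only, 2 fell, Atoh1 and the dimmer Gdf7 probe again. Leaving out 1 array, between 3193 (without ESC replicate 1) and 6424 probes were called (3702 without NPC replicate 1 and 3937 without NPC replicate 2). Between 2 and 4 dorsal probes then rose, from 1 to 3 genes, and 0 or 1 fell; these fits have fewer samples. The lowest count of rises, 2 probes, was without ESC replicate 1, and it was 3 without NPC replicate 1 or NPC replicate 3. Olig3 lost its call with an intensity trend, and the other calls held under it. Over these fits Msx1 ranged between -0.13 and 0.23 and Msx2 between -0.11 and 0.41. With the mean of both probes Gdf7 differed by -0.18. Comparing each dorsal probe with its value under each alternative, 137 kept their call or lack of one without turning sign (of these, Lmx1a and both Gdf7 probes had a difference of 0 at the floor of 6, and so no direction), 21 lost the call, 5 gained one and 5 turned sign, the last all among probes without a call. At 6 as the floor 1 gene rose, against 4 without it. Apart from the fewer samples or probes named, the causes were not tested. For the 4 probes with every value under 6 (Lmx1a, Atoh1 and both of Gdf7), signal over background, which the table does not give, limits what can be said.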
